A study of Homo sapiens with 54 samples.

Results

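Genes for 5 secreted stress factors were followed in HepG2, a human liver cancer line, across 7 compounds at 24 h and 48 h: INHBE (ENSG00000139269), FGF21 (ENSG00000105550), GDF15 (ENSG00000130513), STC2 (ENSG00000113739) and VEGFA (ENSG00000112715). They are 5 of the 20056 rows of the deposited expression table, 1 row per gene, and all 5 were present. The genes were chosen with their differences from solvent in these same arrays already known. Those differences are therefore given as a description, with standard errors and a mark of which passed a threshold. No p-value is printed for them, and nothing is read from how many of them passed the test. The gene symbols come from the list of members, because the deposited table gives Ensembl identifiers alone.

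All 54 arrays measured total RNA of HepG2 cultures that stood in medium with solvent or with solvent and a compound. The compounds were 35 µM 2-nitrofluorene, 10 mM NNK (a tobacco-derived nitrosamine), 114 µM methapyrilene hydrochloride, 45 µM piperonyl butoxide, 95 µM clonidine, 420 µM nifedipine and 2.1 mM tolbutamide, each at 24 h and 48 h with 3 arrays. The solvent was 0.5% dimethyl sulfoxide (DMSO), with 6 arrays a time in 2 exposures of 3 replicates. As background, 2-nitrofluorene and NNK are genotoxic carcinogens, methapyrilene and piperonyl butoxide cause rodent liver tumours without being clearly genotoxic, and clonidine, nifedipine and tolbutamide are an antihypertensive, a calcium channel blocker and an antidiabetic sulfonylurea. Each compound was used at its own single dose, so compounds were set against DMSO and not against each other. Every group is 1 tumour line, and the labelled line was not checked against liver marker genes, since the table names no symbols. The arrays of a group are labelled biological replicates, and the labels do not say whether both DMSO exposures of a replicate number came from 1 culture.

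As background, hepatocytes under amino acid shortage, endoplasmic reticulum stress or mitochondrial stress activate the integrated stress response, in which phosphorylation of the translation factor eIF2alpha favours synthesis of the transcription factor ATF4. ATF4 and its partner CHOP raise genes for secreted proteins that act on other cells and tissues, and all 5 genes here are known among its direct or indirect targets. INHBE encodes the subunit of activin E, a liver hormone of the TGF-beta family that acts on adipose tissue, and FGF21 is a liver hormone that signals through fibroblast growth factor receptors with the co-receptor beta-klotho. GDF15 is a distant TGF-beta relative that lowers appetite through the brainstem receptor GFRAL and is also a target of p53. STC2, stanniocalcin 2, is a glycoprotein that inhibits the protease PAPP-A, and VEGFA, the main growth factor of new blood vessels, is also raised by hypoxia.

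The stretch of 250 bases before the start of the gene was taken from RefSeq for FGF21, GDF15 and STC2 (assembly GRCh38.p14), and not for INHBE or VEGFA. The stretches are shown because ATF4 and related factors are known to bind short motifs near gene starts. They lie at chr19:48755274-48755523 on the plus strand (FGF21), chr19:18385908-18386157 on the plus strand (GDF15) and chr5:173328415-173328664 on the minus strand (STC2). Capitals mark a match on either strand to TGATGNAA, a form of the C/EBP-ATF element.
FGF21: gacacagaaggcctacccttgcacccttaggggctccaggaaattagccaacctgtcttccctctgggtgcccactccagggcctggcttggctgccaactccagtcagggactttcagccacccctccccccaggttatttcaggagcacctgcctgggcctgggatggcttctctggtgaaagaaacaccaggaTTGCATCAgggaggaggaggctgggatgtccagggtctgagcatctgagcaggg
GDF15: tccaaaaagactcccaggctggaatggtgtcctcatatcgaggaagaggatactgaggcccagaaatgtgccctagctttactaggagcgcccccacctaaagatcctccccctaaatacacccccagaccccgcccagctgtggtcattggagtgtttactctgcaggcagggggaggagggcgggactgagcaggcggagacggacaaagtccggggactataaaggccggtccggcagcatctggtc
STC2: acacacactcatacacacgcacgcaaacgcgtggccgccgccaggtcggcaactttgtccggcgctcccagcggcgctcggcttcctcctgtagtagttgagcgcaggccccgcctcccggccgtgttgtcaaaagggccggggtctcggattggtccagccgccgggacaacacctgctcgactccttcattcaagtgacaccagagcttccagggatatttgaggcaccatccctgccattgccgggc
The FGF21 stretch held 1 match, TTGCATCA, which reads TGATGNAA on the minus strand and begins 54 bases before the start. The GDF15 and STC2 stretches held none. None of the 3 held TGACGTCA, the cyclic AMP response element, or ACGTG, the core that hypoxia-inducible factors and other factors bind. Among 35116 promoter stretches of the same length, 3.14% held TGATGNAA, 1.65% held TGACGTCA and 18.5% held ACGTG. A match is a description of letters, and no match says only that those letters are not in this window.

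Values are log2 expression from the robust multi-array average (RMA), a method that corrects background, equalises distributions and summarises the probes of a gene. The number of arrays, not a read depth, limits their precision. Array medians ranged from 5.70 to 6.21, so the deposited distributions were not the same on all arrays. On 4 arrays the values were compressed toward the middle. The slope of their values on the 54-array mean was 0.678 for piperonyl butoxide 48 h replicate 1, 0.798 for NNK 24 h replicate 2, 0.858 for piperonyl butoxide 24 h replicate 2 and 0.911 for DMSO 24 h exposure 2 replicate 2. The other 50 arrays lay between 0.965 and 1.04. These 4 are called low-spread arrays below, and values without them are given where a result rests on them. Because cultures were measured in bulk, fewer cells of a kind and less RNA per cell cannot be told apart.

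Each compound was set against DMSO of the same time in a single limma fit of all 54 arrays with the replicate number within time as a block, and a difference was called at a Benjamini-Hochberg adjusted p below 0.05 over all 20056 rows. At 24 h, 9 of 35 member differences were called, beside 5.43% of all differences of the 7 compounds, and all 9 were rises. At 48 h, 8 of 35 were called, beside 10.4% of all, with 6 rises and 2 falls. INHBE gave 4 of the calls at 24 h, STC2 3 and GDF15 2, while FGF21 and VEGFA gave none. At 48 h GDF15 gave 3, INHBE 2, STC2 2, FGF21 1 and VEGFA none. With the low-spread arrays left out there were 10 (7.98% of all differences called) and 12 (10.5%).

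Compound by compound, methapyrilene had 2 members called at 24 h (1.53% of all rows called) and 3 at 48 h (5.00%). Piperonyl butoxide had 2 at 24 h (26.0%) and 4 at 48 h (58.7%), so a large part of the table was called for this compound. Nifedipine had 3 at 24 h (8.18%) and 1 at 48 h (5.79%). Tolbutamide had 2 at 24 h (2.02%) and, in limma, 0 at 48 h (2.20%), where 2 members had an unadjusted p below 0.05. In limma 2-nitrofluorene had 0 members called at 24 h (0.324%) and 0 at 48 h (0.369%), with 2 below an unadjusted 0.05 at each time. Clonidine had 0 at 24 h (0.00499%) and 0 at 48 h (0.384%), again with 2 below an unadjusted 0.05 at each time by limma. NNK had 0 at both times, where 0% of all rows were called by limma, with 1 member below an unadjusted 0.05 at 24 h and 0 at 48 h. The 7 compounds share the DMSO arrays of their time, so their differences are not independent of each other.

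**Figure D1:**
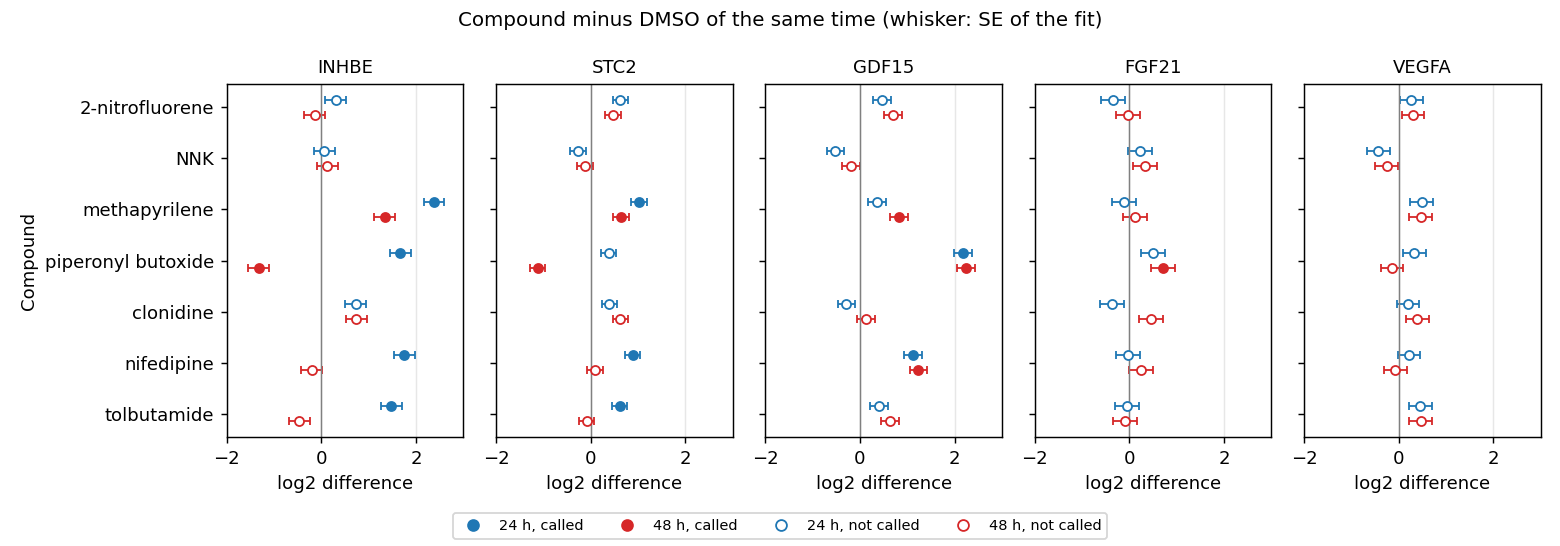
Log2 difference from DMSO of the same time for each gene and compound at 24 h and 48 h, with bars of 1 standard error of the limma fit and filled symbols where the difference was called. INHBE differences at 24 h reach 2.38 for methapyrilene and those at 48 h run down to -1.32 for piperonyl butoxide, while GDF15 stands at 2.18 and 2.24 for piperonyl butoxide at the 2 times.

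INHBE, the activin E subunit gene, rose at 24 h with 4 of the 7 compounds. In DMSO at 24 h its level ran from 5.58 to 6.81 with a median of 6.00 over 6 arrays. The 3 methapyrilene arrays read 8.84, 8.24 and 8.56, and all lay above the DMSO range. The difference was 2.38 (SE 0.22), 5.21-fold. Nifedipine arrays read 7.77, 7.78 and 8.20, a difference of 1.75 (SE 0.22) or 3.37-fold, and piperonyl butoxide arrays read 8.40, 7.15 and 7.94, a difference of 1.67 (SE 0.22) or 3.17-fold. Both sets lay above every DMSO array, with the lowest piperonyl butoxide value on a low-spread array. Tolbutamide arrays read 7.95, 7.53 and 7.46, a difference of 1.48 (SE 0.22) or 2.80-fold, again with no overlap with DMSO. The remaining compounds were not called: the difference was 0.73 for clonidine, 0.30 for 2-nitrofluorene and 0.06 for NNK, and their ranges overlapped DMSO.

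At 48 h INHBE rose with methapyrilene and fell with piperonyl butoxide. The DMSO arrays then read from 8.08 to 8.71 with a median of 8.47. Methapyrilene arrays read 9.76, 10.05 and 9.51, all above that range, a difference of 1.34 (SE 0.22) or 2.53-fold. Piperonyl butoxide arrays read 6.71, 7.12 and 7.50, all below it. INHBE fell by 1.32 (SE 0.22), 2.50-fold lower, and by 1.12 without the low-spread array that read 6.71. Clonidine arrays read 9.37, 9.16 and 8.99, all above the DMSO range, with a difference of 0.74 (SE 0.22) that was not called with all arrays and was called without the low-spread ones. The differences of the other 4 compounds ran from -0.47 for tolbutamide to 0.12 for NNK and overlapped DMSO.

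In DMSO alone INHBE had a mean of 6.16 ± 0.53 (SD, n = 6 arrays) at 24 h and 8.43 ± 0.22 (SD, n = 6 arrays) at 48 h, and the arrays of the 2 times did not overlap. The same DMSO arrays entered the differences by which the genes were chosen, so this contrast too is a description. With both exposures of a number averaged to 3 samples a time, the difference was 2.27 (SE 0.27), 4.81-fold, and it was not called. It was called without the low-spread DMSO array (difference 2.23) and with the 6 arrays a time used singly, which counts paired exposures as separate samples. In this contrast limma called 0 of the 5 members beside 0.0249% of all rows, and 2 members had an unadjusted p below 0.05. The second exposure against the first gave 0 called members and 0 below an unadjusted 0.05 in limma at 24 h and at 48 h, beside 0% of all rows at both times. The largest of these differences was 0.47 (SE 0.27) for VEGFA at 48 h.

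The level of INHBE at each time is therefore given beside its differences. The group mean changed from 24 h to 48 h by 2.33 in NNK, 2.28 in clonidine, 1.82 in 2-nitrofluorene and 1.23 in methapyrilene. In nifedipine it changed by 0.31 and in tolbutamide by 0.32. In piperonyl butoxide, the one treatment of 8 with a lower mean at 48 h, it changed by -0.72. The difference from DMSO therefore changed between times by -2.99 (SE 0.31) with piperonyl butoxide, by -1.96 with nifedipine and by -1.95 with tolbutamide, all called. With methapyrilene it changed by -1.04, which was not called. The values for 2-nitrofluorene, NNK and clonidine were -0.44, 0.06 and 0.01, not called. The tolbutamide call was lost without tolbutamide 48 h replicate 3, where the change was -1.65.

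**Figure D2:**
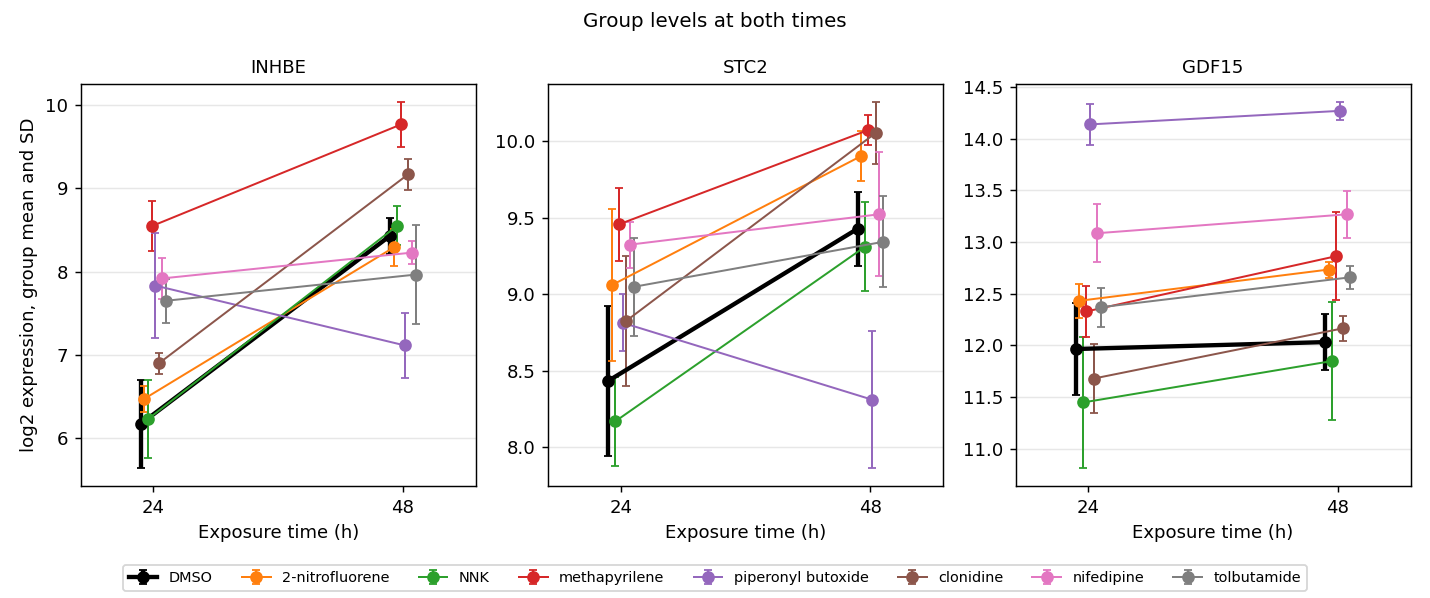
Mean log2 level of INHBE, STC2 and GDF15 at 24 h and 48 h in DMSO and in each compound. INHBE stands 2.27 higher at 48 h in DMSO and changes by 0.31 in nifedipine and -0.72 in piperonyl butoxide.

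STC2, the PAPP-A inhibitor, was called higher than DMSO at 24 h with methapyrilene, nifedipine and tolbutamide. DMSO arrays at 24 h ran from 7.70 to 8.89 with a median of 8.59. Methapyrilene arrays read 9.18, 9.57 and 9.62, and nifedipine arrays read 9.27, 9.21 and 9.49, both above the DMSO range. The differences were 1.02 (SE 0.16, 2.03-fold) and 0.89 (SE 0.16, 1.86-fold). Tolbutamide arrays read 8.69, 9.30 and 9.16 and overlapped DMSO. Their difference of 0.62 (SE 0.16) was called here and was lost in 12 of 22 alternative settings, including the fit without the replicate block. The 2-nitrofluorene arrays read 8.49, 9.28 and 9.41, a difference of 0.63 (SE 0.16) that was not called, though no smaller than that of tolbutamide. The adjustment runs within each contrast, where 0.324% of rows were called for 2-nitrofluorene and 2.02% for tolbutamide. The 2 calls therefore do not set these compounds apart for STC2. The other differences were 0.39 for clonidine, 0.38 for piperonyl butoxide and -0.26 for NNK, all overlapping DMSO. The piperonyl butoxide difference was 0.51 and called without the low-spread arrays.

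At 48 h STC2 rose with methapyrilene and fell with piperonyl butoxide, as INHBE did. DMSO arrays ran from 9.14 to 9.82 with a median of 9.45. Methapyrilene arrays read 9.96, 10.15 and 10.11, all above DMSO, a difference of 0.65 (SE 0.16, 1.56-fold). That call was lost without the replicate block, without methapyrilene replicate 1 (difference 0.58) and without replicate 2. Piperonyl butoxide arrays read 7.81, 8.44 and 8.68, all below DMSO. STC2 fell by 1.12 (SE 0.16), 2.17-fold lower, and by 0.97 without the low-spread array that read 7.81. Clonidine arrays read 9.91, 9.97 and 10.29, all above DMSO, with a difference of 0.63 that was not called with all arrays and was called without the low-spread ones. The differences of 2-nitrofluorene, nifedipine, tolbutamide and NNK were 0.48, 0.09, -0.09 and -0.12, not called.

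In DMSO alone STC2 was at a mean of 8.43 ± 0.49 at 24 h and 9.43 ± 0.24 at 48 h (SD, n = 6 arrays each). With 3 averaged samples a time the difference was 1.00 (SE 0.26), 1.99-fold, and it was not called. It was called with the 6 arrays a time used singly. The difference from DMSO changed between times by -1.50 (SE 0.23) for piperonyl butoxide, which was called. It changed by -0.80 for nifedipine and -0.70 for tolbutamide, and by -0.38 to 0.23 for the others, not called. The lowest STC2 value of the 3 replicate numbers fell in replicate 1 in 7 of 9 exposures at 24 h and 8 of 9 at 48 h, a spread that the replicate block takes up.

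GDF15, the GFRAL ligand, rose with piperonyl butoxide and nifedipine at both times. DMSO arrays ran from 11.42 to 12.61 at 24 h and from 11.65 to 12.45 at 48 h. Piperonyl butoxide arrays read 14.20, 14.30 and 13.92 at 24 h and 14.36, 14.19 and 14.26 at 48 h, all above DMSO. The difference was 2.18 (SE 0.19, 4.52-fold) at 24 h and 2.24 (SE 0.19, 4.72-fold) at 48 h. It was 2.28 at each time without the low-spread arrays. Nifedipine arrays read 13.27, 13.22 and 12.76, then 13.46, 13.33 and 13.02, also above every DMSO array of their time. The differences were 1.12 (SE 0.19, 2.18-fold) and 1.24 (SE 0.19, 2.36-fold).

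With methapyrilene GDF15 read 12.37, 12.55 and 12.06 at 24 h, a difference of 0.36 that was not called. At 48 h it read 13.10, 13.12 and 12.37, a rise of 0.83 (SE 0.19, 1.78-fold), although the lowest array overlapped DMSO. That call was lost without replicate 2, with a difference of 0.68. The 2-nitrofluorene arrays at 48 h read 12.82, 12.71 and 12.67 and the tolbutamide arrays 12.72, 12.73 and 12.53. Both sets lay above the DMSO range. Their differences of 0.70 and 0.63 were not called with all arrays and were called without the low-spread arrays. At 24 h the same compounds differed by 0.47 and 0.41, with ranges that overlapped DMSO. Clonidine differed by -0.29 and 0.13 and NNK by -0.52 and -0.18 at 24 h and 48 h, not called.

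GDF15 differed between DMSO at 48 h and at 24 h by 0.07 (SE 0.23; means 11.96 ± 0.44 and 12.03 ± 0.27, SD, n = 6 arrays), not called. Its difference from DMSO changed between times by 0.06 for piperonyl butoxide up to 0.47 for methapyrilene, and no compound was called. Where INHBE and STC2 fell below DMSO with piperonyl butoxide at 48 h, GDF15 was 4.72-fold above it in the same arrays.

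**Figure D3:**
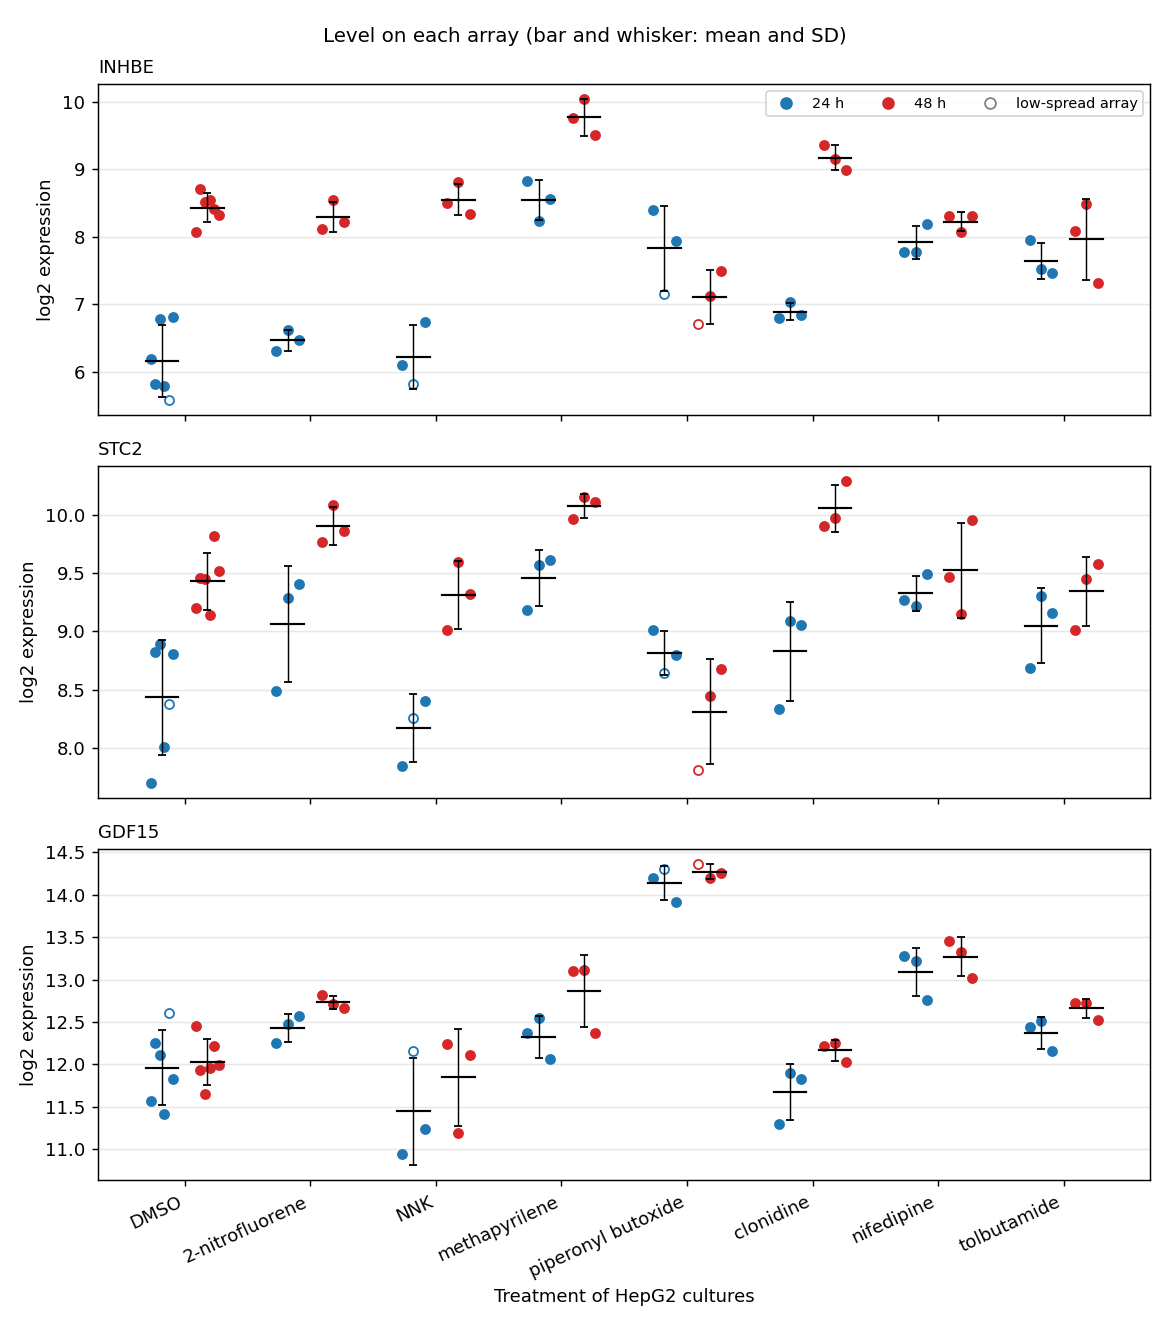
Log2 level of INHBE, STC2 and GDF15 on each array at 24 h and 48 h, with the mean and SD of each group and open symbols for low-spread arrays. GDF15 lies at 13.92 to 14.36 on the 6 piperonyl butoxide arrays, while INHBE lies at 6.71 to 7.50 there at 48 h, below the DMSO arrays of that time.

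FGF21, the beta-klotho-dependent hormone, read between 4.50 and 7.13 over all arrays, with a median of 4.98. This is a low level for these arrays. Its mean of 5.06 lay below the lowest array median of 5.70, and the lowest 0.25 of rows had means below 4.45. The single FGF21 call was piperonyl butoxide at 48 h, where the arrays read 7.13, 4.99 and 4.68, against 4.64 to 5.44 in DMSO. The first of these stood far above the other 2. The difference was 0.71 (SE 0.25, 1.64-fold) and became 0.03 without that array, which is the low-spread array with the slope of 0.678. It was 0.32 and not called after cyclic loess. At 24 h piperonyl butoxide arrays read 5.34, 6.22 and 5.12, a difference of 0.49 that was not called.

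The 4 highest FGF21 values of the series, 7.13, 6.22, 5.99 and 5.88, were those of the 4 low-spread arrays. Rows with a mean level within 0.5 of that of FGF21 numbered 3610. Their median was 5.96 on piperonyl butoxide 48 h replicate 1, 5.58 on NNK 24 h replicate 2, 5.45 on piperonyl butoxide 24 h replicate 2 and 5.34 on DMSO 24 h exposure 2 replicate 2, against 4.89 to 5.16 on the other 50 arrays. Rows of a like level were high on the same 4 arrays as FGF21, and FGF21 read above their median on each of the 4. How much of its level there goes with the compression was not tested.

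**Figure D4:**
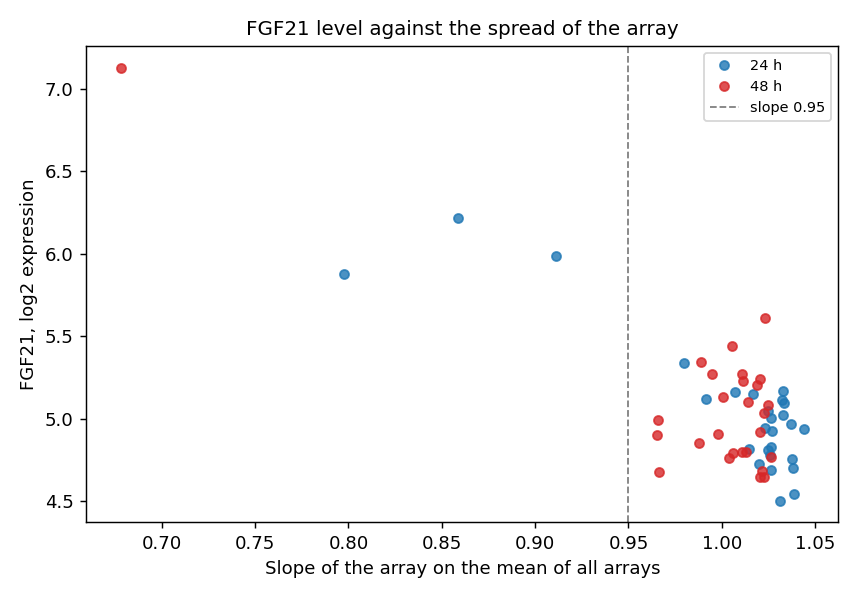
FGF21 log2 level against the slope of an array's values on the 54-array mean, 1 point per array, with a dashed line at a slope of 0.95. The 4 arrays left of the line hold the 4 highest FGF21 values, from 5.88 to 7.13.

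Below them came clonidine 48 h replicate 1 at 5.61 and DMSO 48 h exposure 1 replicate 1 at 5.44. The clonidine arrays at 48 h read 5.61, 5.34 and 5.10, of which the last 2 lay within the DMSO range. Clonidine lay above DMSO of the same replicate number in all 3 replicates, its difference was 0.46 (SE 0.25), and it was called without the low-spread arrays but not with them. NNK and nifedipine at 48 h also lay above DMSO of the same number in all 3 replicates, with differences of 0.32 and 0.25, not called. Leaving the low-spread arrays out, no FGF21 difference at 24 h was called, and they ran from -0.20 for clonidine to 0.37 for piperonyl butoxide. With all arrays the 14 differences ran from -0.37 to 0.71. FGF21 in DMSO differed between 48 h and 24 h by -0.18, not called, and none of its 7 changes between times was called, with values from -0.04 for tolbutamide to 0.84 for clonidine.

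VEGFA, the vascular growth factor, was called with none of the compounds at either time, and 1 of its 14 differences had an unadjusted p below 0.05 in limma. The DMSO arrays ran from 8.33 to 10.04 at 24 h and from 8.79 to 10.24 at 48 h, a range that overlapped every compound group. The differences ran from -0.43 for NNK at 24 h to 0.49 (SE 0.24) for methapyrilene at 24 h. Methapyrilene arrays read 9.13, 10.17 and 9.98 at 24 h and 9.99, 10.08 and 9.71 at 48 h, and lay above DMSO of the same number in 3 of 3 replicates each time. The same held for 2-nitrofluorene, clonidine and tolbutamide at both times. Tolbutamide arrays read 9.21, 9.90 and 10.06 at 24 h and 9.38, 10.01 and 10.37 at 48 h, differences of 0.46 and 0.47. Methapyrilene and tolbutamide overlapped DMSO at both times.

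The VEGFA spread followed the replicate number in part. At 24 h replicate 1 held the lowest of the 3 values in 7 of 9 exposures, and the mean over exposures was 8.94 in replicate 1, 9.51 in replicate 2 and 9.86 in replicate 3. At 48 h it held the lowest in 5 of 9. VEGFA in DMSO differed between times by 0.19, not called, and its changes between times ran from -0.47 for piperonyl butoxide to 0.20 for clonidine, none called. The piperonyl butoxide value rested on the low-spread arrays. Without them the change was -0.15, and the difference at 48 h was 0.24 in place of -0.14, neither called.

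**Figure D5:**
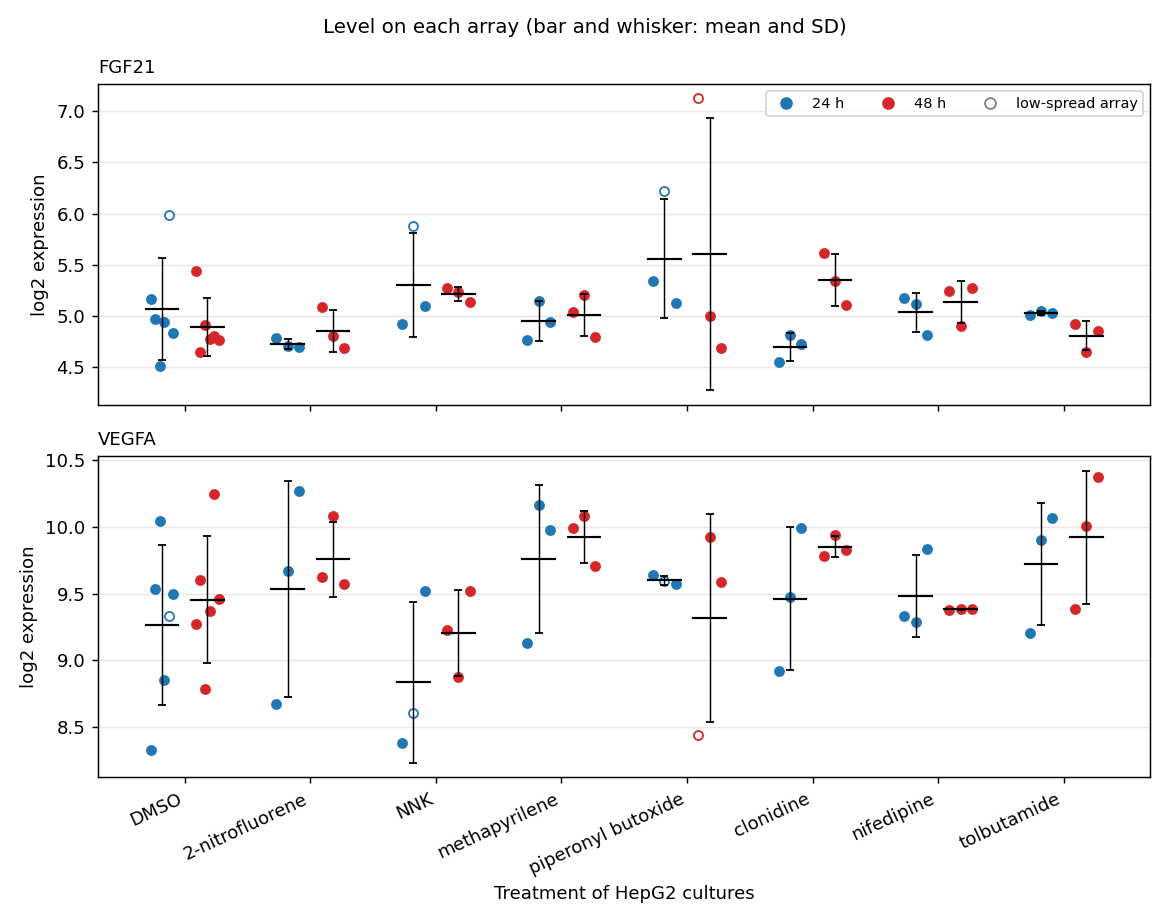
Log2 level of FGF21 and VEGFA on each array at 24 h and 48 h, with the mean and SD of each group and open symbols for low-spread arrays. FGF21 is highest on the 4 open symbols, and VEGFA groups overlap DMSO throughout.

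Ordered by mean level over the 16 groups, INHBE ran from methapyrilene 48 h at 9.77 ± 0.27 and clonidine 48 h at 9.17 ± 0.19 (SD, n = 3) down to DMSO and NNK at 24 h. Of 15 pairs of neighbours in that order, 12 overlapped within 1 SD for INHBE, 14 for GDF15, and all 15 for STC2, FGF21 and VEGFA. For STC2 the top 3 were methapyrilene, clonidine and 2-nitrofluorene at 48 h (10.07, 10.06 and 9.90), and the lowest was NNK 24 h at 8.17. For GDF15 both piperonyl butoxide groups led. These orders are of raw levels and mix both times and the single doses, so they do not rank the compounds. DMSO itself was higher at 48 h by 2.27 for INHBE and 1.00 for STC2.

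Changes between times, taken over the 5 genes and 7 compounds, gave 4 of 35 called, beside 0.176% of all changes, and 4 without the low-spread arrays (0.402%). Piperonyl butoxide gave 2, INHBE and STC2, beside 1.07% of all rows. Nifedipine gave 1 (0.0399%) and tolbutamide 1 (0.0299%), both INHBE. In limma methapyrilene gave 0 (0.0897%) and clonidine 0 (0.00499%), each with 1 member below an unadjusted 0.05, and 2-nitrofluorene and NNK gave 0 with 0 below it, where 0% of rows were called. For piperonyl butoxide at 48 h the median difference of all rows was 0.207, and it was 0.0799 with each array centred and 0.0138 after cyclic loess. Relative to the first of these medians the falls of INHBE and STC2 are larger and the rise of GDF15 smaller by that amount. Other settings moved them either way. Over 22 alternative settings the difference ran from -1.60 to -1.11 for INHBE and from -1.24 to -0.71 for STC2. For GDF15 it ran from 2.11 to 2.79, and all 3 genes stayed called throughout.

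Across the 16 group means INHBE and STC2 rose and fell most alike among the 10 pairs, with a Pearson correlation of 0.877, and 0.865 without the low-spread arrays. STC2 and VEGFA gave 0.731 and INHBE and VEGFA 0.639. GDF15 gave 0.166 with INHBE and -0.00681 with STC2. The correlation of FGF21 with INHBE was 0.0366 and became 0.548 without the low-spread arrays. Within groups, over deviations of the 54 arrays from the fit, STC2 and VEGFA gave 0.615, INHBE and STC2 0.458, and INHBE and FGF21 -0.49. Over the 50 arrays left without the low-spread ones, the same pairs gave 0.596, 0.329 and -0.284. These values describe 16 groups that share replicate numbers and 54 arrays that share spread, and carry no test.

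The rows whose 16 group means lay closest to each gene by Pearson correlation are given by identifier, as the files pair them with no symbol. For GDF15 they were ENSG00000129667 (0.971) and ENSG00000161011 (0.96), at rank 4 and rank 2 when the low-spread arrays were left out. For INHBE they were ENSG00000221978 (0.897) and ENSG00000204178 (0.891), at rank 9 and rank 16 without those arrays. For STC2 they were ENSG00000116251 (0.952) and ENSG00000100889 (0.936), at rank 866 and rank 1, and for VEGFA ENSG00000121039 (0.884) and ENSG00000166855 (0.872), at rank 7 and rank 1439. For FGF21 they were ENSG00000182916 (0.93) and ENSG00000185988 (0.929), at rank 2657 and rank 231. Without the low-spread arrays their correlations with FGF21 were 0.338 and 0.565, while the next row by correlation (0.927) kept 0.838 and stood at rank 1.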

How the data were processed

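Total RNA of HepG2 cultures was hybridised to Affymetrix expression arrays after biotin labelling, per the labels' protocols. The deposited values are log2 expression produced by the authors using RMA, as the submitters' processing notes say, and the sources used here name no version, annotation or genome build. The 54 columns were mapped to samples by label, 0 columns were left unused, no value was missing, and no 2 arrays were identical (highest correlation 0.997).

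Differences were fitted with limma 3.58.1 in R 4.3.3 over all arrays, with 16 groups and the replicate number within time as a block (34 residual degrees of freedom), eBayes, no filter, and Benjamini-Hochberg adjustment per contrast over 20056 rows. The pairing comes from the labels, which list for every compound array its matching DMSO arrays. Deviations of same-numbered arrays correlated at 0.242 on average at 24 h and 0.205 at 48 h, over 0.1 in 76 and 73 of 105 pairs. DMSO at 48 h against 24 h used 3 averaged samples a time without a block. Arrays with a slope below 0.95 on the 54-array mean were taken as low-spread, a limit set after seeing the data.

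The members, lists and rules were chosen with earlier results of these data known. The named genes are the 5 members and, for each, at most 2 rows by identifier out of the 3 with the most alike group means. Of the 20056 identifiers, 0 matched the reference table by Ensembl identifier, so the lists of related genes and cell type markers drawn up for this work were not analysed here. The fit was tested on simulated data. Alternatives were no block, fits of single compounds, averaged DMSO exposures, a filter of the lowest 0.25 of rows, centring, cyclic loess, trended and robust eBayes, leaving out single arrays, and, added after seeing the data, leaving out low-spread arrays and array weights.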

Additional observations from a re-analysis of the deposited data

Results flagged for a closer look

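FGF21 in DMSO at 48 h, exposure 1 replicate 1, read 5.441, and the other 5 DMSO arrays of that time lay between 4.64 and 4.91. Its gap to the nearest array was 0.669 of the range of the group, above the critical value of 0.625 for 6 arrays. A total of 10 groups of 6 arrays were examined, and chance gives about 1 such array in 20 groups.

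The difference of INHBE from DMSO changed between 24 h and 48 h by -2.987 with piperonyl butoxide, -1.956 with nifedipine and -1.952 with tolbutamide, each called by the limma term for the change itself. The difference of STC2 changed by -1.498 with piperonyl butoxide, called likewise. These genes were chosen with these contrasts known, and the level of INHBE in DMSO was 2.27 higher at 48 h in the same arrays. Its part in the changes was not tested.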

How the results depend on the processing

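Over all alternatives, 2650 of the recomputed values of single genes kept their side of the threshold, of which 112 that were not called changed sign. A further 25 lost a call, 35 gained one, and 0 called values changed sign. Without the replicate block, the counts were 8 at 24 h, 7 at 48 h and 4 for the change between times (4.28%, 9.06% and 0.0641% of all differences called), against 9, 8 and 4 with it (5.43%, 10.4% and 0.176%), and the block decided the STC2 calls of tolbutamide at 24 h and methapyrilene at 48 h and no other. Array weights, whose iteration stopped before convergence, gave 16 and 13 at the 2 times, beside 12.8% and 11.5% of all differences. At 24 h they gave 1 for 2-nitrofluorene, 1 for NNK, 1 for clonidine and 5 for piperonyl butoxide. At 48 h they gave 2 for 2-nitrofluorene, 3 for clonidine and 1 for tolbutamide. For the change between times they gave 1 for methapyrilene and 2 for nifedipine, beside 1.34% of all changes. Fits of each compound with its own DMSO arrays, which have fewer samples, gave 2 for the change between times (0.0114% of all). Of these, 1 was for piperonyl butoxide and 0 for tolbutamide. At 48 h those fits gave 1 for tolbutamide, beside 5.59% of all differences. Tolbutamide at 24 h fell to 1 in those fits, without the block, with averaged DMSO exposures, with centred arrays, after cyclic loess and without the low-spread DMSO array. Leaving out the low-spread arrays gave 1 for 2-nitrofluorene, 3 for clonidine and 1 for tolbutamide at 48 h, beside 10.5% of all differences. Cyclic loess gave 2 for clonidine at 48 h, beside 8.42% of all. Leaving out the low-spread NNK array alone also gave 1 for tolbutamide at 48 h, beside 11.1% of all differences. No low-spread array was among the clonidine, 2-nitrofluorene, tolbutamide or DMSO arrays at 48 h. The differences of these compounds at 48 h were the same with and without the low-spread arrays. For INHBE with clonidine it was 0.74 in both, with an SE of 0.22 and 0.20. DMSO at 48 h against 24 h gave 2 with arrays used singly and 1 without its low-spread array. Leaving out single arrays gave 0 to 1 for DMSO, 1 to 2 for tolbutamide at 24 h, 1 to 3 for methapyrilene at 48 h, 0 to 1 for clonidine at 48 h and 0 to 1 for the tolbutamide change. For single compounds and for DMSO, the share of all rows called in each alternative setting is not given here. Nothing is therefore read from these counts. The cause of the shifts in counts between settings was not tested. The standard error of a difference from DMSO was 0.25 for FGF21 and 0.24 for VEGFA with all arrays. Without the low-spread arrays it was 0.124 for FGF21 and 0.22 for VEGFA at 48 h where all 3 compound arrays stayed in.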
